A study of Bos taurus with 4 samples.

Results

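Cholesterol synthesis, uptake and trafficking genes were examined in bovine expanded blastocysts that had been cryopreserved as morulae. The genes were 31 members named by their place in the pathway, and every probe of the custom EMBV3 bovine embryo array whose symbol in the platform table was a member was used. This gave 57 of the 43794 probes on the array, with 1 to 4 probes per gene, and 31 of its 15216 genes with a symbol. Of these, 52 probes stood under the members' present symbols and 5 under older ones, namely SC4MOL for MSMO1 and SC5DL for SC5D. Expression was measured in 4 pools of blastocysts from vitrified morulae and 4 pools from slow-frozen morulae. All embryos were produced in vitro from abattoir oocytes labelled as beef breed and fertilized with semen of 1 dairy bull, and each pool was labelled as holding 7 embryos. Vitrified morulae had passed through ethylene glycol and DMSO and were plunged in liquid nitrogen on a Cryotop, a thin strip that holds a minimal volume. Slow-frozen morulae had been held in glycerol in a straw and cooled at a controlled rate before storage in liquid nitrogen. Both groups were warmed and cultured on, so each pool held only embryos that had survived and expanded, and the labels give 7 days after fertilization for the collection of both groups. By the methods morulae of about that age were frozen and then cultured further, so the age of the blastocysts is not settled. Unfrozen embryos are not analysed here, so both groups had been cryopreserved.

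Cells make cholesterol from acetyl-CoA through the mevalonate pathway, in which isoprenoid units are built, joined into squalene, closed into lanosterol and trimmed to cholesterol. The enzymes are under common transcriptional control by SREBP2, a membrane-bound factor encoded by SREBF2. When sterols are low, the escort protein SCAP carries SREBP2 to the Golgi, where the site-1 and site-2 proteases (MBTPS1 and MBTPS2) release it, whereas INSIG1 and INSIG2 hold the complex in the endoplasmic reticulum when sterols are plentiful. Cholesterol taken up with lipoproteins is freed in lysosomes, leaves them through NPC2 and NPC1, and is esterified for storage by SOAT1. In the early embryo sterols are needed for new membrane, and cholesterol is also the precursor of steroids made by the trophectoderm.

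Values are normalised intensities on a log2 scale, and each difference is vitrified minus slow-frozen with its standard error (SE) from limma, so that a difference of -1 is a halved level. A probe was kept if it was brighter than 95% of the negative control spots in at least 3 of the 4 pools of either group. Of the 57 probes, 52 probes of 30 genes were kept. These were 36 of 37 probes of 19 synthesis genes, 11 of 12 probes of 6 regulatory genes and 5 of 8 probes of the genes of uptake, egress and storage. The 3 probes of STARD4, a cytosolic sterol carrier, exceeded the controls in at most 2 of the 8 pools, so STARD4 was not well above background with any probe. A second probe of NSDHL and a further probe of SREBF2 were also left out for low signal.

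The pools differed from each other in ways their labels do not explain. Vitrified pool 3 lay at 56.3 and slow-frozen pool 2 at -34.2 on the first principal component, which held 24.8% of the variance, and the other 6 pools lay between -10.3 and 9.52. Each group had been hybridised on a slide of its own, so slide and group cannot be told apart. In each group pools 1 and 2 carried Cy5 and pools 3 and 4 carried Cy3. Median raw intensity ranged from 109 to 384 between pools, and with 4 pools per group the number of pools limits the precision. In pooled whole embryos, fewer cells of a type and less RNA per cell cannot be told apart.

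None of the 52 cholesterol probes passed the adjustment over all 30034 kept probes in the comparison of vitrified with slow-frozen blastocysts. The smallest adjusted p was 0.939 (limma, Benjamini-Hochberg), and 0.00333% of all kept probes, 1 probe that was no member, passed the adjustment. At an unadjusted p under 0.05, 2 of the 52 probes were past the threshold, MBTPS2 and NPC2, both lower in vitrified pools. This was 3.85% of the cholesterol probes, against 4.83% of all kept probes (2.38% lower and 2.45% higher in vitrified pools). At the thresholds given in the study's methods, a fold of at least 2 with an unadjusted p under 0.05, 0 of the 52 probes were past, against 0.183% of all kept probes. The values of the 4 vitrified and the 4 slow-frozen pools overlapped for each of the 52 probes. Among all kept probes 2.46% had groups that did not overlap, a share so small that 0 of 52 does not set the cholesterol probes apart.

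The median difference was -0.06 over the 52 cholesterol probes and 0.0057 over all kept probes. It was -0.07 for synthesis, 0.03 for regulation and -0.05 for uptake, egress and storage. In the synthesis group 25 of 36 probes had a difference below 0, as did 5 of 11 probes of regulation and 3 of 5 of uptake, egress and storage. Together this was 33 of 52 probes, or 63.5%, against 48.5% of all kept probes. The count rested on single pools, since it was 23 of 52 without slow-frozen pool 2 and 43 of 52 without slow-frozen pool 4. Without slow-frozen pool 2 the median difference was 0.02. For 49 of the 52 probes the 95% confidence interval of the difference lay within a 2-fold change in either direction, as it did for 96.3% of all kept probes. The 3 other probes were one of HMGCS1, one of CYP51A1 and that of MBTPS2.

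**Figure D1:**
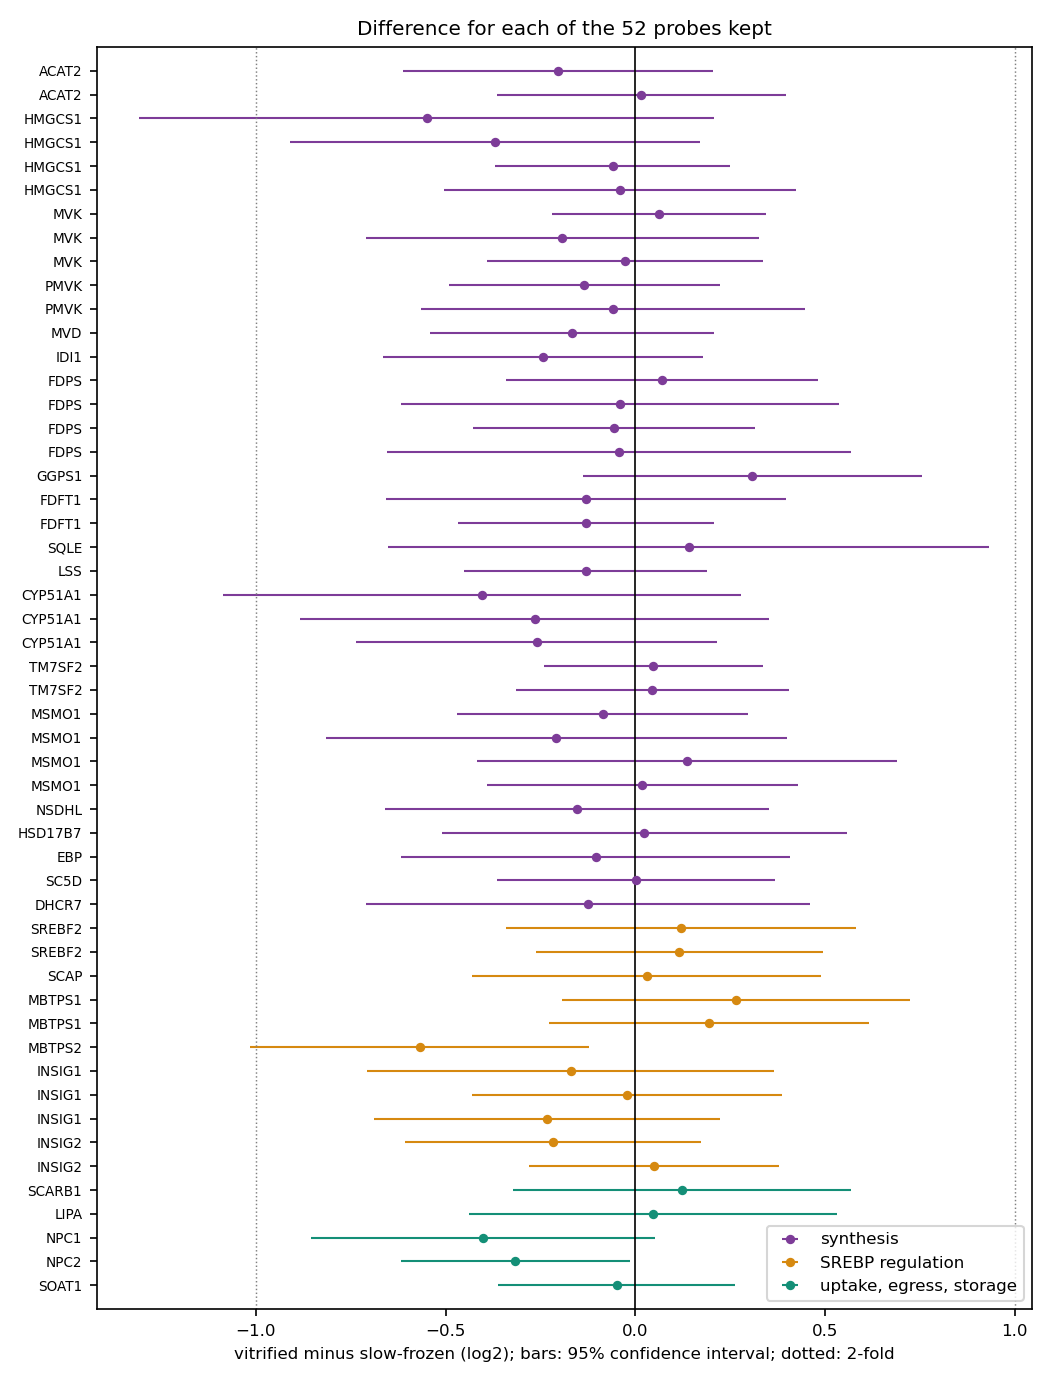
Difference (vitrified minus slow-frozen, log2) of each of the 52 kept probes, with its 95% confidence interval, coloured by role. Dotted lines mark 2-fold changes, the intervals of MBTPS2 and NPC2 alone leave out 0, and neither passed the adjustment.

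HMGCS1, the synthase that forms HMG-CoA early in the pathway, was read by 4 probes that differed among themselves. EMBV3_14732 had 13.12, 13.40, 12.59 and 13.29 in vitrified pools 1 to 4, against 13.46, 13.83, 13.85 and 12.74 in slow-frozen pools 1 to 4. EMBV3_08646 had 9.47, 9.85, 8.49 and 10.12 in vitrified pools, against 10.13, 10.45, 10.39 and 9.16 in slow-frozen pools. With both probes vitrified pool 3 was the lowest of all, slow-frozen pool 4 was the lowest of its group by a wide gap, and the groups overlapped only through slow-frozen pool 4. The differences were -0.37 (SE 0.24) and -0.55 (SE 0.34), with unadjusted p of 0.159 and 0.138 in limma. With single pools left out, EMBV3_14732 ran from -0.15 without slow-frozen pool 3 to -0.60 without slow-frozen pool 4 (unadjusted p = 0.0207 in limma). EMBV3_08646 ran from -0.24 without vitrified pool 3 to -0.89 without vitrified pool 4 (unadjusted p = 0.0121 in limma), and neither probe passed the adjustment in these fits. The other HMGCS1 probes gave smaller differences. EMBV3_24024 had 7.48, 7.44, 7.26 and 7.55 in vitrified pools, against 7.35, 7.65, 7.57 and 7.41 in slow-frozen pools, and differed by -0.06 (SE 0.14). EMBV3_28348 had 8.13, 8.08, 8.56 and 8.28 in vitrified pools, against 8.01, 8.85, 8.36 and 7.98 in slow-frozen pools, and differed by -0.04 (SE 0.21). Between pools EMBV3_08646 and EMBV3_14732 moved alike (r = 0.94 over 8 pools after removal of group means), and EMBV3_28348 followed neither of them (r = 0.12 and 0.29). The correlations share the same pools and are given as a description.

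Elsewhere in the mevalonate part of the pathway the differences lay between -0.24 and 0.31. IDI1, the isomerase that makes the allylic isoprenoid unit, had 11.01, 11.01, 11.06 and 11.43 in vitrified pools 1 to 4, against 11.39, 11.87, 11.17 and 11.06 in slow-frozen pools 1 to 4. Vitrified pool 4 stood apart from the other 3 of its group and lay above all slow-frozen pools except pool 2, and the difference was -0.24 (SE 0.19). ACAT2, here the cytosolic acetyl-CoA acetyltransferase that opens the pathway, had differences of -0.20 and 0.02 with its 2 probes. The kinases MVK (3 probes) and PMVK (2 probes) and the decarboxylase MVD (1 probe) had differences between -0.19 and 0.06. All 4 probes of FDPS, the farnesyl diphosphate synthase, lay between -0.06 and 0.07. GGPS1, which leads away from sterols to geranylgeranyl diphosphate, had the highest difference of all cholesterol probes, 0.31 (SE 0.20, unadjusted p = 0.156 in limma).

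In the steps from squalene onwards the spread between pools was wide beside the difference between groups. SQLE, the squalene epoxidase and a rate-limiting enzyme of the pathway, had 11.76, 12.31, 11.27 and 12.92 in vitrified pools 1 to 4, against 11.42, 12.71, 11.95 and 11.61 in slow-frozen pools 1 to 4. Both the highest and the lowest value were in vitrified pools, a 3.14-fold range. The difference was 0.14 (SE 0.36), with a 95% confidence interval of -0.65 to 0.93. Its sign rested on single pools, since it was -0.22 without vitrified pool 4, -0.08 without slow-frozen pool 1 and 0.44 without vitrified pool 3. Without vitrified pool 3 and slow-frozen pool 2, a setting chosen after seeing the data, it was 0.87 with an unadjusted p of 0.00376 and an adjusted p of 0.986 in limma.

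LSS, the cyclase that forms lanosterol, had 7.39, 7.56, 7.27 and 7.53 in vitrified pools 1 to 4, against 7.43, 7.69, 7.42 and 7.72 in slow-frozen pools 1 to 4. The groups overlapped, and the difference was -0.13 (SE 0.15). DHCR7, the reductase that makes cholesterol from 7-dehydrocholesterol, had 8.90, 9.38, 8.44 and 9.87 in vitrified pools, against 9.10, 9.36, 9.40 and 9.23 in slow-frozen pools. Its 4 slow-frozen values lay inside the range of the vitrified ones, with an SD of 0.62 among vitrified and 0.14 among slow-frozen pools, and the difference was -0.13 (SE 0.27). It was 0.17 without vitrified pool 3 and -0.40 without vitrified pool 4.

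Among the remaining enzymes, both probes of the squalene synthase FDFT1 had a difference of -0.13. The 3 probes of the lanosterol demethylase CYP51A1 lay between -0.40 and -0.26, and slow-frozen pool 2 had the highest value with each of them (14.41 with the brightest probe, against 13.54 in the highest vitrified pools). The 4 probes of the sterol methyl oxidase MSMO1 lay between -0.21 and 0.14. NSDHL and EBP, which act on the sterol ring after lanosterol, had differences of -0.15 and -0.11. TM7SF2, HSD17B7 and SC5D, reductases and a desaturase of the same stretch, had differences between 0.0020 and 0.05.

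**Figure D2:**
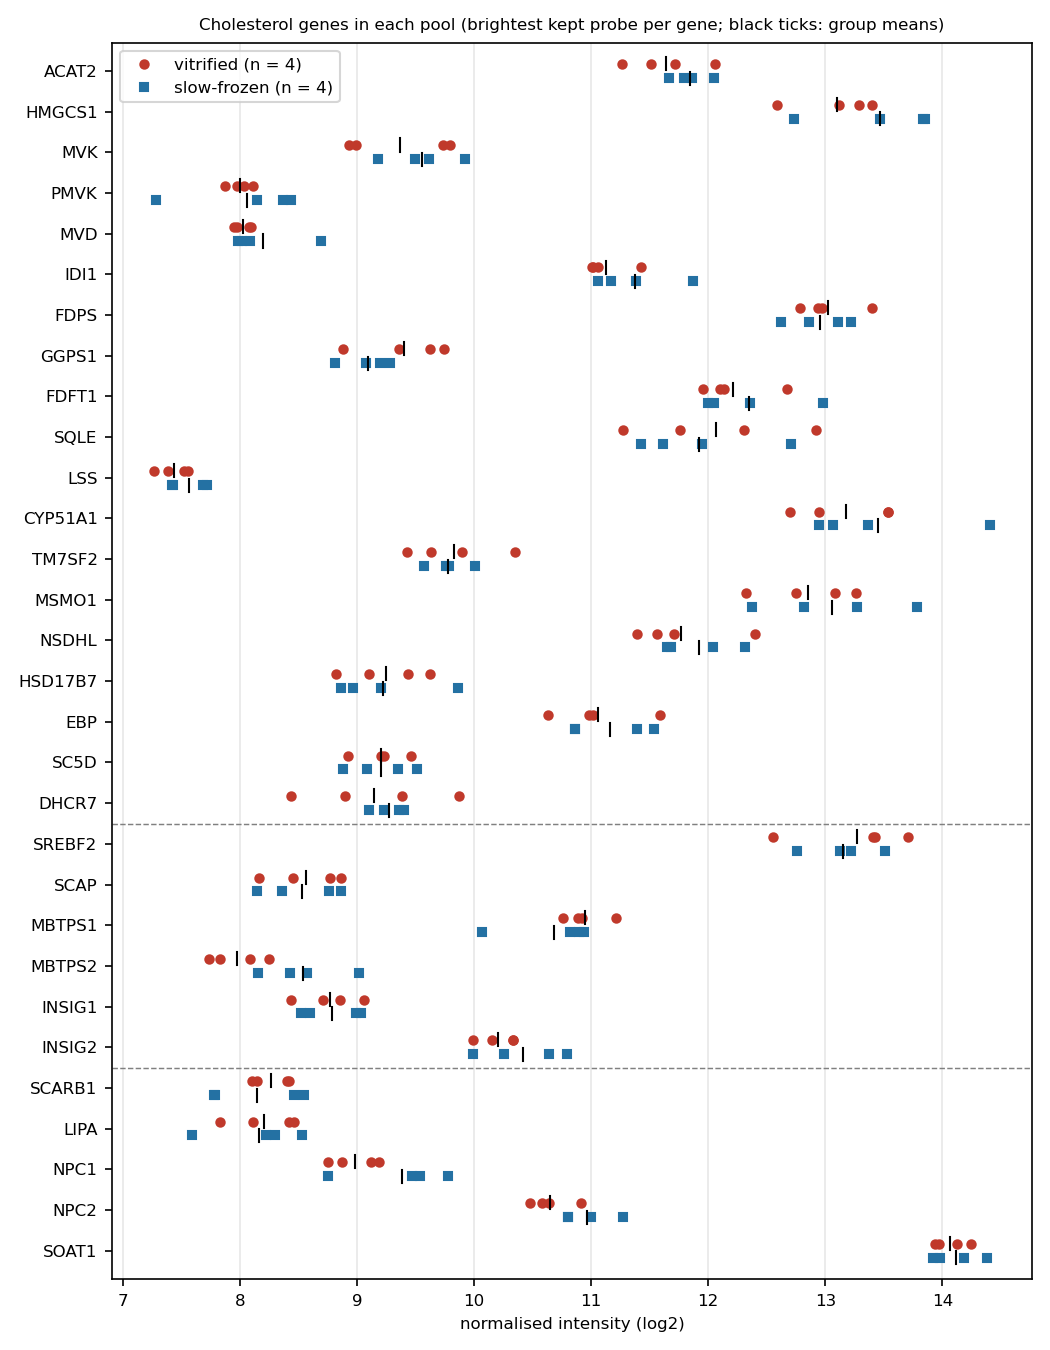
Normalised log2 intensity in each pool for the brightest kept probe of 30 genes, with vitrified pools (circles) above slow-frozen pools (squares) and black ticks at the group means. Dashed lines part synthesis, SREBP regulation, and uptake, egress and storage; positions along the axis are comparable within a gene and not between genes. The groups overlap for every gene.

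Of the genes that regulate SREBP2, MBTPS2 had the lowest difference of all 52 probes. It had 7.74, 7.83, 8.09 and 8.25 in vitrified pools 1 to 4, against 8.43, 9.02, 8.15 and 8.57 in slow-frozen pools 1 to 4. Only vitrified pool 4 and slow-frozen pool 3 crossed, and slow-frozen pool 2 was the highest. The difference was -0.57 (SE 0.20, 95% confidence interval -1.01 to -0.12), with an unadjusted p of 0.0174 and an adjusted p of 0.939 in limma. It was -0.94 within the pools labelled with Cy5 and -0.19 within those labelled with Cy3. Without slow-frozen pool 2 it was -0.37, and the unadjusted p was 0.0621, 0.0523 and 0.061 when vitrified pool 1, vitrified pool 2 or slow-frozen pool 2 was left out. An exact two-sided permutation test of the 8 values gave p = 0.0571, where the smallest that 70 splits allow is 0.0286.

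The other regulators lay nearer to 0. SREBF2 had 13.71, 13.43, 13.41 and 12.55 in vitrified pools 1 to 4, against 13.51, 13.13, 12.76 and 13.22 in slow-frozen pools 1 to 4. Vitrified pool 4 was the lowest of the 8 and vitrified pool 1 the highest, and the difference was 0.12 (SE 0.21), as it was with the second kept probe. SCAP had 8.86, 8.45, 8.77 and 8.16 in vitrified pools, against 8.36, 8.76, 8.86 and 8.15 in slow-frozen pools. Its groups covered the same range, with a difference of 0.03 (SE 0.21).

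INSIG1, which is itself a transcriptional target of SREBP2, had 8.71, 8.86, 8.43 and 9.06 in vitrified pools 1 to 4, against 8.52, 9.03, 8.99 and 8.60 in slow-frozen pools 1 to 4 with its brightest probe. The groups again covered the same range, with a difference of -0.02 (SE 0.19), and its other 2 probes gave differences of -0.17 and -0.23. The differences of SREBF2, SCAP and INSIG1 changed sign when single pools were left out, among them vitrified pool 3 for each (-0.03, -0.08 and 0.11). INSIG2 had -0.22 and 0.05 with its 2 probes, and MBTPS1 had 0.27 and 0.19.

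Both genes of lysosomal cholesterol egress had lower mean levels in vitrified pools. NPC2, the soluble carrier that hands cholesterol to NPC1, had 10.64, 10.91, 10.58 and 10.48 in vitrified pools 1 to 4, against 11.00, 11.27, 10.80 and 10.81 in slow-frozen pools 1 to 4. Vitrified pool 2 lay above slow-frozen pools 3 and 4, and the other 3 vitrified pools lay below all slow-frozen ones. The difference was -0.32 (SE 0.14), with an unadjusted p of 0.0421 in limma, and it was -0.36 within Cy5 and -0.27 within Cy3. The unadjusted p was over 0.05 when any of vitrified pools 1 and 4 or slow-frozen pools 2, 3 and 4 was left out (0.0648 to 0.126), and the adjusted p was 0.9997.

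NPC1, the membrane protein that exports cholesterol from lysosomes, had 9.12, 8.88, 9.19 and 8.75 in vitrified pools 1 to 4, against 9.47, 9.78, 9.54 and 8.75 in slow-frozen pools 1 to 4. Slow-frozen pool 4 was as low as the lowest vitrified pool, while the other 3 slow-frozen pools lay above all vitrified ones. The difference was -0.40 (SE 0.21), with an unadjusted p of 0.0774 in limma, and it was -0.63 within Cy5 and -0.18 within Cy3. Without slow-frozen pool 4 it was -0.60 with an unadjusted p of 0.00591 and an adjusted p of 0.548.

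**Figure D3:**
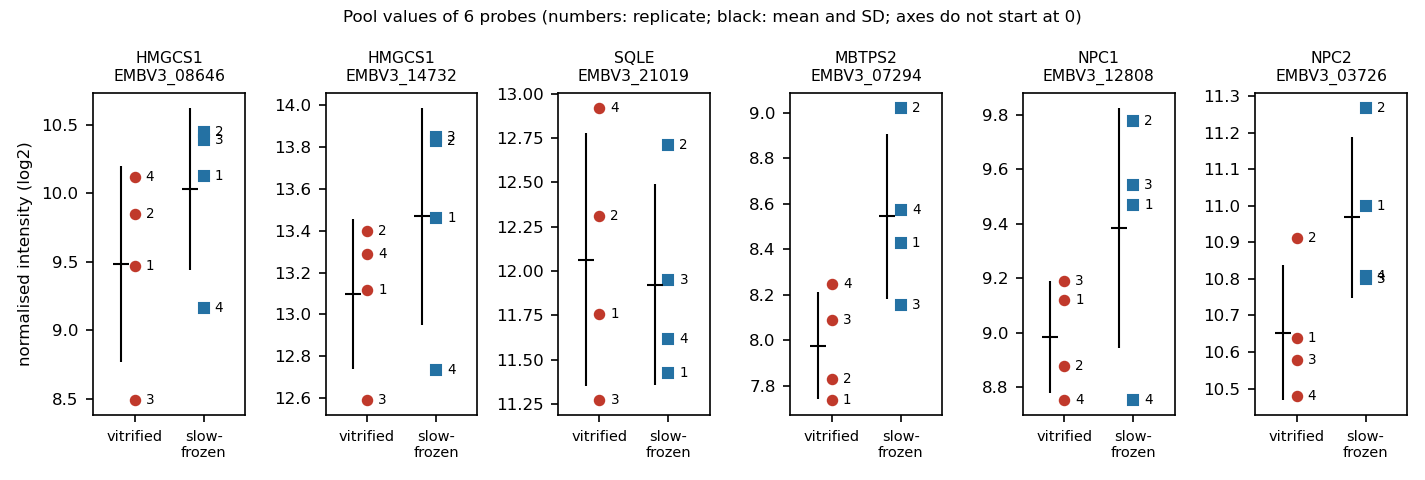
Pool values of 6 probes (normalised log2 intensity, vitrified left, slow-frozen right, replicate number beside each point) with the mean and SD of each group, on axes that do not start at 0. Vitrified pool 3 is the lowest for both HMGCS1 probes and SQLE, slow-frozen pool 2 is the highest for MBTPS2, NPC1 and NPC2, and the groups overlap in all panels.

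Uptake and storage genes had differences between -0.05 and 0.12. SCARB1, the lipoprotein receptor for selective uptake of cholesteryl ester, had 8.14, 8.10, 8.42 and 8.41 in vitrified pools 1 to 4, against 7.78, 8.47, 8.55 and 7.79 in slow-frozen pools 1 to 4. The vitrified values lay between the 2 low and the 2 high slow-frozen ones, and the difference was 0.12 (SE 0.20). LIPA, the lysosomal lipase that frees cholesterol from its esters, differed by 0.05 (SE 0.22). SOAT1, which esterifies cholesterol in the endoplasmic reticulum, had 14.24, 13.97, 14.12 and 13.94 in vitrified pools, against 14.38, 14.18, 13.98 and 13.92 in slow-frozen pools. Its difference was -0.05 (SE 0.14), with a 95% confidence interval of -0.36 to 0.26. Single pools turned the sign of SCARB1 (-0.05 without slow-frozen pool 4) and of SOAT1 (0.03 without vitrified pool 2).

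Other sterol and isoprenoid genes were taken from a list of 50 genes, of which 40 had a probe and 37 a kept probe. Of 53 kept probes, 0 passed the adjustment, and 2 had an unadjusted p under 0.05, 1 in each direction, against 4.83% of all kept probes. The median difference was -0.02. NCEH1, a cholesteryl ester hydrolase, had 8.72, 8.50, 8.55 and 8.82 in vitrified pools 1 to 4, against 9.54, 9.40, 8.67 and 9.06 in slow-frozen pools 1 to 4 with its probe EMBV3_10837. The groups overlapped through slow-frozen pool 3, and the difference was -0.52 (SE 0.18, unadjusted p = 0.0154 in limma). Its other 2 kept probes gave -0.17 and -0.20.

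NR5A2, a nuclear receptor that acts on sterol metabolism and in early embryos, had 8.65, 8.78, 8.37 and 7.79 in vitrified pools 1 to 4, against 8.13, 7.58, 7.95 and 7.64 in slow-frozen pools 1 to 4 with its probe EMBV3_40939. Vitrified pool 4 alone lay within the slow-frozen range, and the difference was 0.57 (SE 0.20, unadjusted p = 0.0161 in limma). Its other kept probes gave 0.16 and 0.05. SREBF1, the paralogue of SREBF2 that acts mainly on fatty acid synthesis, had a difference of -0.41 (SE 0.19, unadjusted p = 0.052 in limma). The sterol carrier SCP2 had -0.38 (SE 0.19, unadjusted p = 0.0682 in limma) with its probe EMBV3_12773. Of its other 3 kept probes, 2 had -0.38 and the brightest, EMBV3_00820, had -0.11.

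The spread between pools was described next, without a test. The SD that remained within groups, after the dye term, had a median of 0.33 over the 52 probes and 0.23 over all kept probes. Among probes with a mean level of at least 10 it was 0.35 for 19 cholesterol probes and 0.30 for 6816 probes in all. Over the brightest probe of the 19 synthesis genes it was 0.40, and over the brightest probe of all 11728 genes 0.25. These lists were not matched for level, with a median level of 11.11 for the synthesis genes and 8.64 for all genes.

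Most synthesis enzymes moved together between pools. Each gene was taken by its brightest probe, the group means were removed, and the correlation of each pair of genes was computed over the 8 pools. For the 171 pairs among the 19 synthesis genes the median r was 0.53, and 50.3% of pairs had an r over 0.5. For all 11728 genes with a kept probe the median r was 0.007, and 14.9% of pairs were over 0.5. For the 10 synthesis genes with a mean level of at least 10, the median r was 0.77 and 93.3% of 45 pairs were over 0.5, against 0.008 and 14.9% for all 3706 genes at that level. The pairs share the same 8 pools and the same normalisation, so these values are a description without a test. The median r of the 19 genes lay between 0.42 and 0.59 when each pool was left out in turn. It was 0.45, with 43.9% of pairs over 0.5, when vitrified pool 3 and slow-frozen pool 2 were both left out, where all genes had 0.012 and 21.6%. The 10 genes with a mean level of at least 10 had a median r of 0.56 in that setting. With single pools left out their median r was 0.73 to 0.84.

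**Figure D4:**
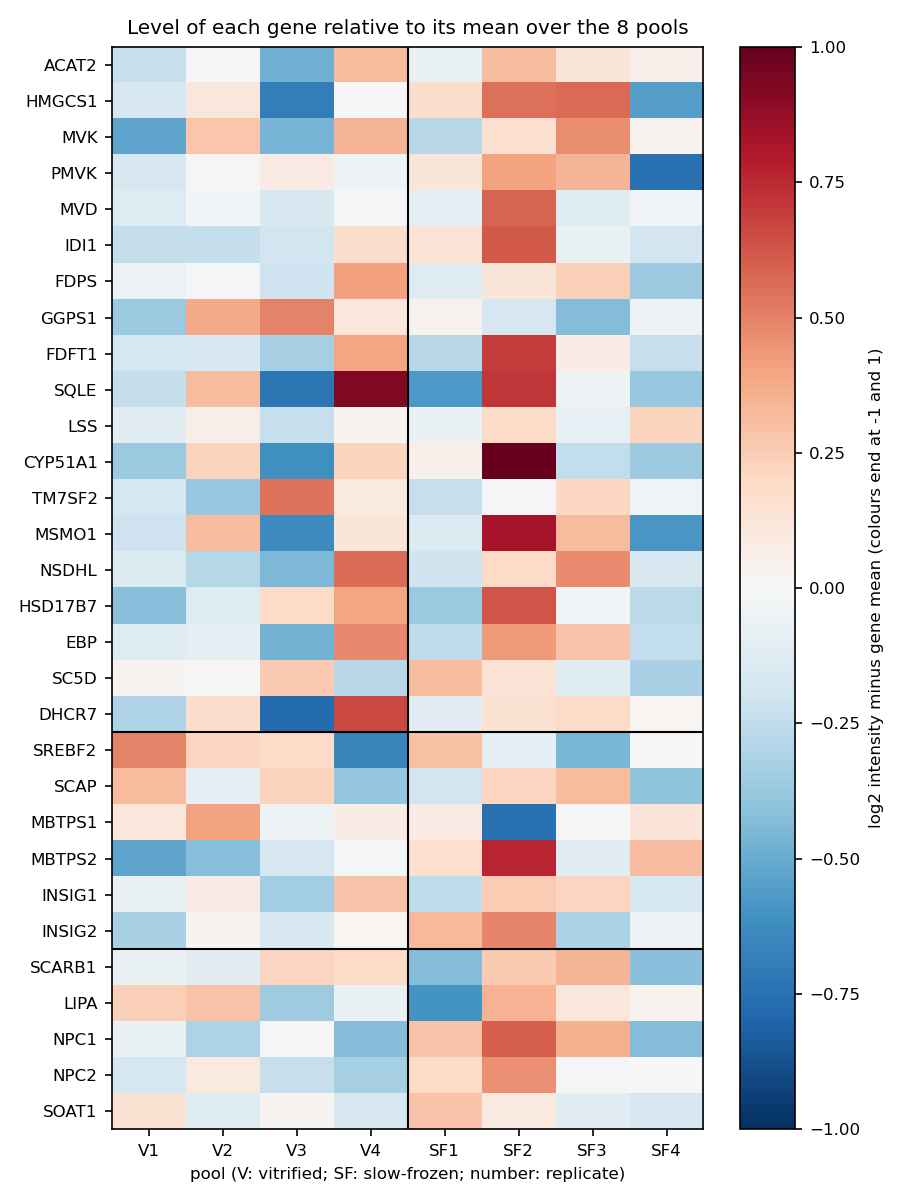
Level of each gene (brightest kept probe, rows by role) in each pool relative to its mean over the 8 pools, in log2 units, with vitrified pools (V) left and slow-frozen pools (SF) right. Most synthesis rows are low in V3 and high in V4 and SF2, and INSIG1 has the same pattern. SREBF2 is lowest in V4 with the probe shown, and was lowest in V3 with its other kept probe.

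As medians over the 19 synthesis genes, levels relative to each gene's mean over all pools were -0.18, -0.0037, -0.33 and 0.23 in vitrified pools 1 to 4, against -0.11, 0.40, 0.12 and -0.23 in slow-frozen pools 1 to 4. Each group thus held pools above and below the mean. Over all kept probes these medians lay between -0.02 and 0.02. Vitrified pool 3 had the lowest of the 8 values for 11 of the 19 synthesis genes (57.9%), as it had for 19.9% of all genes. Slow-frozen pool 2 had the highest value for 7 of the 19 genes and vitrified pool 4 for 6, against 14.4% and 9.43% of all genes. Vitrified pool 4 and slow-frozen pool 2 were joined in 1 deposited file and were normalised together by loess. Without loess the median r among the synthesis genes was 0.48.

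The pattern did not cover the whole pathway. GGPS1, TM7SF2 and SC5D had a median r with the other synthesis genes of -0.13, -0.06 and -0.10, whereas FDFT1 (0.75), SQLE (0.73), EBP (0.70), ACAT2 (0.68) and MSMO1 (0.67) had the highest values among the enzymes. SQLE and ACAT2 had an r of 0.97 with each other. These values rest on 1 probe per gene, and the probes of a gene did not always move alike. The r between probes was -0.36 to -0.02 for MVK, 0.08 for PMVK, -0.14 to 0.87 for MSMO1 and 0.12 to 0.94 for HMGCS1. For ACAT2, FDPS, FDFT1, CYP51A1 and TM7SF2 it ran from 0.54 to 0.94. Outside the enzymes, INSIG1 had a median r of 0.79 with the 19 synthesis genes, and its 3 probes had r of 0.56 to 0.86 among themselves. Its median r lay between 0.72 and 0.84 when each pool was left out in turn.

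SREBF2 ran the other way, with a median r of -0.38 with the synthesis genes and an r of -0.70 with INSIG1. Its median r was -0.83 when the dye means were also removed and -0.25 with median centring in place of quantile normalisation. The 2 kept probes of SREBF2 had an r of 0.13 with each other, so that this description holds for its brightest probe. MBTPS1 had -0.38, SCAP 0.02, INSIG2 0.40 and MBTPS2 0.34. The 2 probes of MBTPS1 had an r of -0.11 with each other and those of INSIG2 0.04, so these values too hold for the brightest probes. Of the genes of uptake, egress and storage, SCARB1 had 0.45, LIPA 0.42, NPC2 0.31, NPC1 0.29 and SOAT1 -0.19.

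Cell lineage markers were read beside these genes. Of 12 trophectoderm markers 11 had a probe, and all 11 exceeded the negative controls in all 8 pools. Their summed level was 17.1 to 17.5 in vitrified pools and 17.6 to 17.8 in slow-frozen pools (log2 of the summed intensities), so the groups did not overlap. All 8 inner cell mass markers were above the controls, with 15.1 to 15.5 in vitrified pools and 14.8 to 15.0 in slow-frozen pools, again without overlap. Both lists were chosen with earlier results of these data known, so the lack of overlap is a description only. Among all kept probes taken singly, 2.46% had groups that did not overlap, and no such share was computed for summed lists. Within these lists TFAP2C (0.05) and NANOG (-0.08) alone had a difference of the other sign. Hypoblast markers, of which 5 of 6 had a probe, covered 15.2 to 16.1 in vitrified pools and 15.0 to 16.1 in slow-frozen pools. Of 10 cumulus and granulosa markers 4 were above the controls in all pools, and AMH was above them in 0 of 8 pools. Summed over all 10, background-level markers included, levels were 11.2 to 11.5 in vitrified pools and 11.3 to 11.6 in slow-frozen pools. Of 5 blood markers 4 were above the controls in all pools. Summed over all 5, levels were 10.3 to 10.8 in vitrified pools and 10.5 to 10.8 in slow-frozen pools.

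Set against the trophectoderm markers, the synthesis genes matched in some pools and not in others. The median of the 11 markers was -0.08, -0.04, -0.38 and -0.02 in vitrified pools 1 to 4, against 0.14, 0.29, 0.25 and 0.20 in slow-frozen pools 1 to 4. Vitrified pool 3 and slow-frozen pool 2 were thus the lowest and the highest for both lists. Vitrified pool 4 was high and slow-frozen pool 4 low for the synthesis genes and not for the trophectoderm markers. The median of the inner cell mass markers was -0.07, -0.35, -0.16 and -0.19 in slow-frozen pools 1 to 4, lowest in pool 2. That of the hypoblast markers was -1.29, 0.46, 0.36 and -0.42 in the same pools, lowest in pool 1. The part of cell lineage in the levels of the cholesterol genes was not tested.

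**Figure D5:**
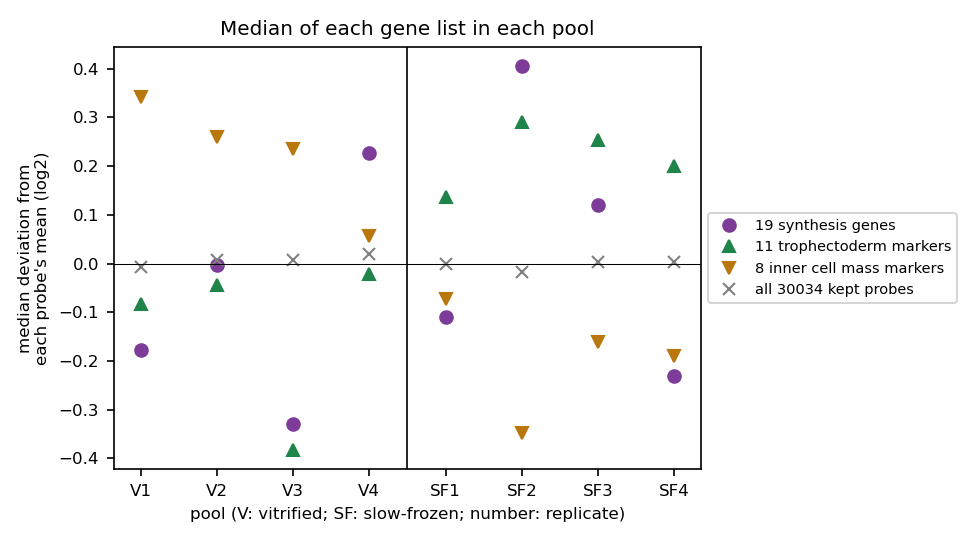
Median deviation (log2) from each probe's mean over the 8 pools, for the 19 synthesis genes, 11 trophectoderm markers, 8 inner cell mass markers and all 30034 kept probes, with vitrified pools left and slow-frozen pools right. The synthesis genes run from -0.33 in V3 to 0.40 in SF2 with both signs in each group. The trophectoderm and inner cell mass markers, chosen with earlier results of these data known, part by group. Hypoblast markers are not shown and overlapped between the groups.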

How the data were processed

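The authors deposited, in 4 scanner files, intensity values read with Array-Pro (the median of each spot and of its surroundings, nothing subtracted, per the file headers). Every file pairs the channel of a vitrified pool with that of a slow-frozen pool hybridised on the other slide. The authors made the deposited log2 values of the series by subtraction, lowess and quantile normalisation in FlexArray. These values followed a log2 Cy5 over Cy3 ratio of the 2 channels (r of at least 0.999996) and served as an alternative. Here normexp with an offset of 50 was applied to the background, then loess inside each file and quantile normalisation across the 8 channels. Of 43794 probes, 30034 were kept, and the 58 marked as ignored in any file were left out. The test was limma 3.58.1 (R 4.3.3), two-sided, with dye as a term and Benjamini-Hochberg adjustment over all kept probes, and the script was tested on simulated data. Group, replicate and dye came from the labels. The methods describe the replicates as pools from separate production cycles, with a tube per treatment from each cycle. Members and lists were chosen with earlier results of these data known. Per-pool values were given for key genes by role, for probes with an unadjusted p under 0.05 and for members whose probes differed by over 0.5. Alternatives covered background, normalisation, filter, dye, blocks, source of values, test, probe choice and single pools. No genome build is named in the files, so no coordinates are given.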

Additional observations from a re-analysis of the deposited data

Results flagged for a closer look

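For 6 of 104 groups of 4 pools (52 probes in 2 groups, 5.77%), the highest or lowest pool was separated from the others by more than Dixon's 95% bound, and chance alone marks about 1 in 20 such groups. Slow-frozen pool 2 was high for MVD (8.69, with the next pool at 8.08), low for TM7SF2 with EMBV3_18404 (7.16, with the next at 7.39) and low for MBTPS1 with EMBV3_05270 (10.07, with the next at 10.82). Vitrified pool 4 was high for IDI1 (11.43, with the next at 11.06) and for INSIG1 with EMBV3_18281 (8.89, with the next at 8.10). Slow-frozen pool 4 was low for MSMO1 with EMBV3_36472 (10.77, with the next at 11.55).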

How the results depend on the processing

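In every alternative run, 0 cholesterol probes passed the adjustment and 0 passed the study's thresholds. The count at an unadjusted p under 0.05 was 2, and the share of all kept probes is given in brackets (4.83%). It became 1, MBTPS2 each time, with plain subtraction (5.17%), with median centring (3.29%) and with a filter on all 8 pools (5.78%). It was also 1, again MBTPS2, without the dye term (4.55%) and with the deposited log2 ratios (7.39%). With the exact permutation test it was 0 (2.46%). Leaving out single pools gave 0 to 5, with 0 without slow-frozen pool 2, 1 without vitrified pool 1 (GGPS1), vitrified pool 2 (NPC2) or slow-frozen pool 3 (MBTPS2), and 5 without slow-frozen pool 4 (HMGCS1 with 2 probes, CYP51A1, MBTPS2 and NPC1). In the same runs 2.91% to 5.97% of all kept probes were past this threshold (5.97% without slow-frozen pool 4, 3.37% without slow-frozen pool 2). Without vitrified pool 4 it was 3 and included HMGCS1 and CYP51A1 in place of NPC2. Leaving out vitrified pool 3 and slow-frozen pool 2 together, chosen after seeing the data, gave 1, SQLE (4.42% of all kept probes). The median difference stayed between -0.14 and 0.02 with single pools left out, and was 0.09 with both pools left out, -0.11 with the deposited ratios, -0.12 over the brightest probes and -0.09 over gene means. The median r among synthesis genes, examined after seeing the data, was 0.53 and became 0.48 without loess, 0.58 with dye means removed, 0.45 without both pools, and 0.42 to 0.59 without single pools. The cause of these shifts was not tested. The labels do not say that same-numbered pools share a production cycle, so the numbers were not taken to pair the pools. Same-numbered pools deviated together with r of 0.16, 0.09, -0.03 and 0.09. By r, the best slow-frozen partners of vitrified pools 1 to 4 were pools 1, 2, 1 and 3. Such values cannot settle whether pools share a cycle. With the replicate number as a block the count at an unadjusted p under 0.05 was 3 (5.11% of all kept probes), as with a random block for the 2 channels of a file (9.04% of all kept probes), with MBTPS2, NPC1 and NPC2 each time, and the replicate block left the median difference at -0.06 and moved NPC1 to an unadjusted p of 0.0468 in limma. With 4 pools per group the interval of SQLE reached nearly a 2-fold change (log2 0.93).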
